A study of Mus musculus with 36 samples.

Results

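A list of 50 developmental transcription factor genes was examined in the DNA methylation data of B3, a mouse cell line that models the pre-B stage of B lymphocyte development. The genes were listed by name and belong to the Pax, Sox, Gata, Tbx, Nkx, Otx, Lhx (with Isl1), Fox and bHLH families and to the sine oculis group (Six2, Six3 and Six6). Their regions were the CpG clusters, runs of listed cytosines at most 100 bp apart, that overlapped the gene or the 2 kb on either side of it in GENCODE M21 (build GRCm38). This gave 152 of the 18009 clusters of the series, at 49 of the 50 genes, and Myf5 had none. A value in all 36 samples at 1 position or more was available for 146 of the 152 clusters, and these 146 are described below.

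The cells had been transduced with a retrovirus that carried either a haemagglutinin-tagged Ikaros-ERt2 fusion (HA-Ikaros-ERt2, Ikaros series) or ERt2 without Ikaros (Control series, empty vector). ERt2 is the hormone-binding domain of the estrogen receptor, and per the methods both retroviruses also encoded GFP. Ikaros is a zinc finger transcription factor of lymphocytes, and the ERt2 part keeps the fusion protein out of the nucleus until 4-hydroxytamoxifen (4-OHT) is added. Each series was harvested at 0, 2, 6, 12, 18 and 24 h with 3 replicates, 18 samples in all per series. The labels give 0.5 µM 4-OHT for every time point, while the methods of the study describe the 0 h cells as untreated. The methods also describe the 0 h cells as collected separately. A change between 0 h and later times thus cannot be told apart from a difference of collection. Replicates of a condition were harvests from different batches of the same lines, so the p-values measure the spread between such harvests of transduced B3 cells. The methods describe no repeat of the transduction. A difference between the series therefore cannot be told apart from a standing difference between the transduced populations.

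Methylation was measured by reduced representation bisulfite sequencing (RRBS), in which reads start at the CCGG sites cut by MspI, and the level of a position is the percentage of methylated cytosine after smoothing over its neighbours. No coverage accompanies the levels, so the depth behind a single level is unknown. Control samples lacked a value at 0.110% to 11.6% of positions and Ikaros samples at 0.139% to 3.18%, and Control 0 h replicate 1 had the 11.6%. The share of levels at exactly 0 or 1 was 27.9% ± 4.89 (SD, n = 18) in the Control series and 36.2% ± 7.63 (SD, n = 18) in the Ikaros series. The promoter clusters of 3 pre-B marker genes had low levels, 0.205% at Ebf1, 0.982% at Pax5 and 0.337% at Vpreb1. Those of Lck, a T cell kinase gene, had 79.6%, and those of Fcgr3, an Fc receptor gene of myeloid cells, had 95.6%.

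The genes encode proteins that set the identity of cells outside the blood, such as neurons (Neurog1, Neurod1), muscle (Myod1), heart (Nkx2-5, Tbx5), kidney (Pax2, Six2) and gut endoderm (Sox17, Foxa2). Their promoters lie in long stretches of CG-rich DNA, called CpG islands, which in most normal tissues carry little methylation and are held silent by Polycomb proteins. In many cultured and transformed cell lines such islands are found methylated instead. The data hold a single cell line, so they give the level that each island had in B3 and not whether that level was gained there.

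Stretches of 6 genes show the range of levels that was found, each chosen because a result below turns on it. They were read from GRCm38 on the strand of the gene, 5′ to 3′, contain no annotated UTR, and have each CG dinucleotide, the site of methylation, in capitals. Both cytosines of a CG can be listed as separate positions.
The first stretch lies upstream of Sox2 (plus strand, chr3:34649814-34649929), has 16 CG in 116 bases and had a level of 97.0% ± 1.87 (SD, n = 36).
Sox2: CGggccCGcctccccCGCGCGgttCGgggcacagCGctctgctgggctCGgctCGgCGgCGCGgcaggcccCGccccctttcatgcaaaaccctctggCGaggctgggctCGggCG
Within the Lhx2 gene, an intronic stretch (plus strand, chr2:38348226-38348525) with 27 CG in 300 bases had 0.386% ± 0.586 (SD, n = 36), and another intronic stretch (plus strand, chr2:38356929-38357157) with 23 CG in 229 bases had 97.7% ± 1.41.
Lhx2 low: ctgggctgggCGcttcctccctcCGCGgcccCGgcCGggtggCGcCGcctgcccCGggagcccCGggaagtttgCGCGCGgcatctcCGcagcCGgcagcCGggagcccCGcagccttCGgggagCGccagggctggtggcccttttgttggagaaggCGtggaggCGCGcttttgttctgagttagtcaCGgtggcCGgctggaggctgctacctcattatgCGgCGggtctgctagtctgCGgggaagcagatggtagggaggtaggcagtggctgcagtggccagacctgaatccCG
Lhx2 high: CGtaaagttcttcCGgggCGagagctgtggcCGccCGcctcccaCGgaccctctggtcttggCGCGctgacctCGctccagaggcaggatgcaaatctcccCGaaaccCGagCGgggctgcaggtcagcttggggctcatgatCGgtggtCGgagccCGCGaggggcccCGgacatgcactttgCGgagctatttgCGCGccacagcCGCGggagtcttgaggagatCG
The stretch upstream of Foxc1 (plus strand, chr13:31806157-31806456) with 28 CG holds an edge, since its positions ran from 78.3% down to 0.851% within 300 bases.
Foxc1: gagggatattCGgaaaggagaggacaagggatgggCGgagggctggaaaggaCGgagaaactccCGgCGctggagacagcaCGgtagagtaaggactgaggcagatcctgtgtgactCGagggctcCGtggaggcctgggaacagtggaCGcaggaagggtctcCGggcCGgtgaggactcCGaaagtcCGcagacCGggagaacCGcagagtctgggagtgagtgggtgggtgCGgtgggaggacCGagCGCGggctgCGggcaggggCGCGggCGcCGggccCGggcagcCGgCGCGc
An intronic stretch of Pax7 (minus strand, chr4:139831619-139831865) with 24 CG had a level near the middle of the scale, 49.6% ± 11.4 (SD, n = 36).
Pax7: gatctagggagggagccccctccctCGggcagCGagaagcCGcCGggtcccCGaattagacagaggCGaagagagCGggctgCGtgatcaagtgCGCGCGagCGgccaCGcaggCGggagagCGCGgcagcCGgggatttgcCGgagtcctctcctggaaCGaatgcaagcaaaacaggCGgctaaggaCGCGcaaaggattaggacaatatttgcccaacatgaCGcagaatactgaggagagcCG
Intronic and coding stretches of Otx1 (minus strand, chr11:22001997-22002213, 26 CG) and Neurod1 (minus strand, chr2:79453967-79454176, 13 CG) belong to clusters whose level differed between the series.
Otx1: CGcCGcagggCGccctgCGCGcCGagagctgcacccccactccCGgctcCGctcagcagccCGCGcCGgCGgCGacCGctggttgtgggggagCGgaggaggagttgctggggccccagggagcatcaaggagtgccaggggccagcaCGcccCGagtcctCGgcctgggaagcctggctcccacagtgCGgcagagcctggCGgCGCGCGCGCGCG
Neurod1: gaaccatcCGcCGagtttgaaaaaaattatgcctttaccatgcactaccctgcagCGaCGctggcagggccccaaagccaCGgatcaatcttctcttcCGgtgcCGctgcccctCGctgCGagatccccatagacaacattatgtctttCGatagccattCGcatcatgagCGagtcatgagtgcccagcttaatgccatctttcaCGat
The low and the high Lhx2 stretches had similar base composition, with 70.0% and 66.8% G or C.

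Nearly all promoters of the 50 genes were highly methylated. A cluster was called a promoter cluster when it lay within 1000 bp of an annotated transcription start of its gene, and 84 such clusters at 45 genes had a value. Their median level was 96.0%, with 67 over 90%, 16 between 10% and 90%, and 1, at Foxc1, under 10%. In every one of the 36 samples, 78 of the 84 were over 50% and 47 were over 90%. Sox1, Olig2, Neurod1 and Hand2 had only clusters farther from a start. Island-like sequence (at least 200 bp, at least 50% G or C, and an observed to expected CpG ratio of at least 0.6) was present in 76 promoter clusters, of which 72 (94.7%) had at least 50% methylation.

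The levels are given below by the tissue for which each gene is best known, an order chosen for reading and not a fixed list, so nothing is counted by tissue. The 7 promoter clusters at 74.5% or lower, at Foxc1, Lhx2, Pax7, Lhx1 and Otx1, are described further on. Among genes of the nervous system and eye, Sox2, which maintains neural and embryonic stem cells, had promoter clusters at 97.0%, 97.2% and 97.5%. Pax6, the master gene of eye development, had 3 promoter clusters between 97.3% and 98.1%, and its partner in the eye, Six6, had 97.3%. Nkx2-2, which patterns the ventral neural tube, had 4 between 95.9% and 98.3%, and Nkx6-1, which acts beside it, had 98.2%. Olig1, a gene of oligodendrocyte precursors, had 97.6%, and the gene-body clusters of Olig2 had 97.3% and 97.4%. The proneural genes Neurog1 and Neurog2 had 95.5% and 96.6%, and Isl1, a motor neuron gene, had 97.9%. Sox1, Sox14 and Sox21, relatives of Sox2 in the nervous system, had 98.2% and 98.4% (gene body), 88.8% and 94.7%, and 96.7% and 98.1%. The neural crest genes Sox10 and Foxd3 had promoter levels of 96.6% and 94.6%. Otx2, a forebrain gene, had 92.9%, and Lhx5, which acts in hypothalamus and spinal cord, had 97.1%. At Neurog1 the lowest sample had 64.1% and the highest 100%, whereas at Nkx6-1 all samples lay between 96.9% and 99.3%.

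Among genes of muscle, skeleton and limb, Myod1, which starts skeletal muscle differentiation, had 97.4%, and Twist1, a gene of mesenchyme, had the highest promoter level of all, 98.7%. Pax3, which acts in muscle precursors and neural crest, had 94.5%. Pax1 and Pax9, both needed for the vertebral column, had levels of 93.1% to 95.9%. Of the limb genes, Tbx4 had 96.3%, while the 2 promoter clusters of Tbx5 had 88.8% and 88.9%. The cluster upstream of Tbx5 fell to 41.2% in Control 0 h replicate 1, its lowest sample. Tbx15 had 88.4% and 91.8%. Sox9, a cartilage gene, had 94.4%, and the 3 promoter clusters of Tbx3 had 95.7% to 96.8%.

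Among genes of heart, endoderm and kidney, Nkx2-5 had 91.6% and 95.8%, Hand1 96.5% and Gata5 94.8% and 96.3%. Gata4, a zinc finger activator of heart and gut genes, had 94.8% at 1 promoter cluster and 85.1% at the other. Tbx1, a gene of the pharynx and outflow tract, had 3 promoter clusters between 95.5% and 97.3%, and the gene-body cluster of Hand2 had 89.2%. Gata6 had 4 promoter clusters between 94.0% and 97.7%. Sox17, which specifies endoderm, had 95.5% to 97.7%, and Foxa1 and Foxa2, the pioneer factors of liver and lung, had 97.6% and 95.7%. Nkx2-1, which directs thyroid and lung development, had 87.5% and 95.9%. Pax8, a thyroid and kidney gene, had 97.6%, Pax2 had 87.3% to 93.7%, and Six2, a gene of nephron progenitors, had 89.9% and 97.9%.

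By family, the share of clusters of all kinds over 90% ran from 64.3% in the Lhx family (9 of 14) to 94.1% in the Sox family (16 of 17). It was 70.0% in the Fox, 77.3% in the Pax and 78.3% in the Tbx family. The Gata, bHLH, Nkx and Otx families and the sine oculis group lay between 81.8% and 90.9%. With 9 to 23 clusters in a family, 1 cluster more or less moves such a share by several points. The plot of all clusters by gene shows that the low values sit in a small number of genes.

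**Figure D1:**
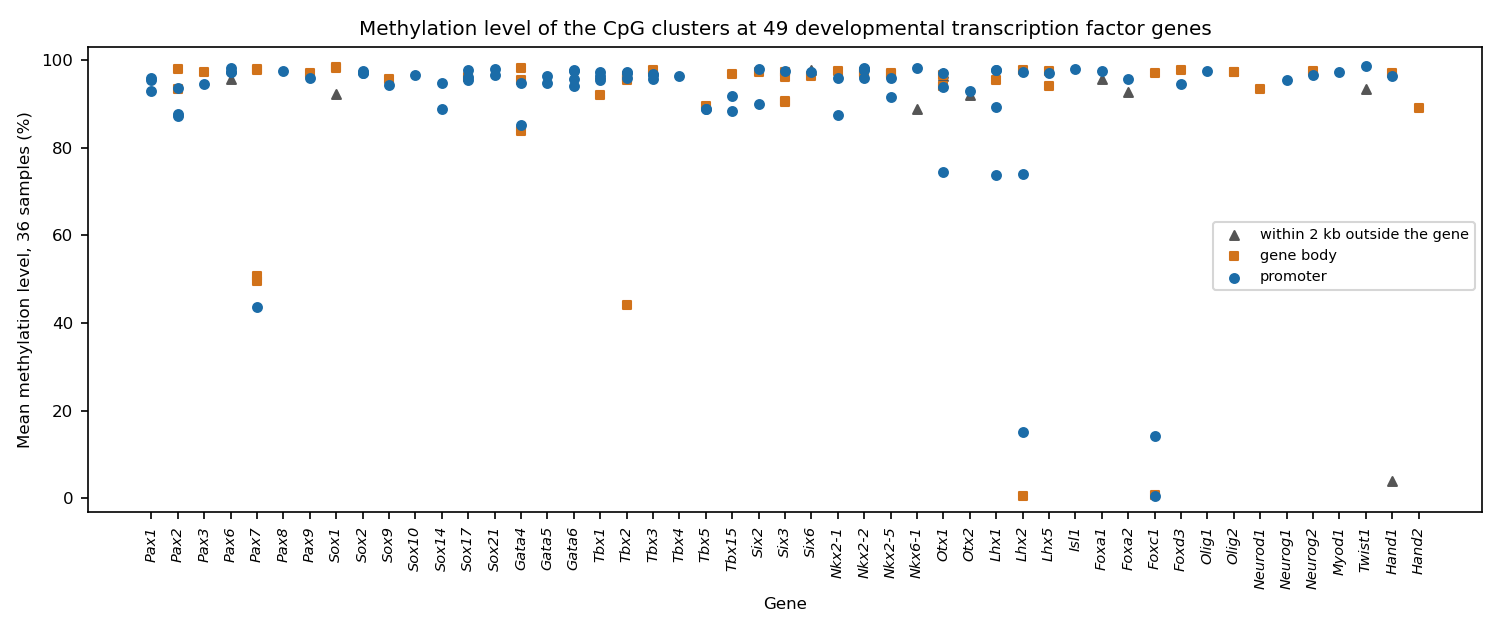
Mean methylation level over the 36 samples (vertical axis, %) of each of the 146 clusters, by gene and ordered by family. Circles are promoter clusters, squares gene-body clusters and triangles clusters within 2 kb outside the gene. Most points lie over 90%, and the points under 50% belong to Pax7, Tbx2, Lhx2, Foxc1 and Hand1.

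Only 4 of the 146 clusters, at 3 genes, were under 10%. Foxc1, a forkhead gene of eye, vessel and skeletal development, held 2 of them. The cluster at 335 bp to 1108 bp past the start of Foxc1 (chr13:31806968-31807741, 69.0% coding) had 0.565%, and the next one, wholly coding (chr13:31807866-31808453), had 0.861%. The first ranged from 0.158% to 1.15% over the samples and the second from 0.290% to 2.22%, so both were low in each of the 36. Farther on, 4412 bp past the start and in UTR sequence, Foxc1 was methylated at 97.1% (93.7% to 98.8%).

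On the other side the low region of Foxc1 ended before the start of the gene. The promoter cluster that spans the start (chr13:31806094-31806703) had 14.4%, which is a mean over very different positions, from 78.3% at 466 bp upstream to 0.343% at 73 bp upstream. Of its 52 positions, 38 were under 10%. Its level was 11.8% in the lowest, 14.2% in the median and 18.9% in the highest Ikaros sample. The Control samples gave 11.5%, 14.6% and 16.6%, and the 2 series overlapped. The levels had been smoothed over 80 bp before deposit, which bears on the width of such an edge.

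Lhx2, a LIM homeobox gene of forebrain, eye and hair follicle, had every kind of level along 1 gene. The cluster at its 5′ end (chr2:38339151-38339891) had 74.1%, from 64.8% to 84.0% over the samples. An intronic cluster 8751 bp to 9244 bp into the gene (chr2:38348032-38348525) had 0.542%, the lowest level of all 146, and stayed between 0% and 1.45%. The cluster at an internal start (chr2:38351644-38352624) rose along its length from 1.61% to 58.7%, with a mean of 15.2% and 56 of 82 positions under 10%. Beyond it, 2 clusters had 97.2% and 97.7%. The low intronic cluster also lies within 1 kb of a start of the non-coding gene Gm27197.

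The other cluster under 10% lay outside Hand1, a bHLH gene of heart and placenta, on its 3′ side (chr11:57827747-57828147). It had 4.03%, with single positions from 0.927% to 15.4% and samples from 0% to 10.3%. The gene-body and promoter clusters of Hand1 had 97.1% and 96.5%. Among promoter clusters, the values nearest to the limit of 10% were 0.565% (Foxc1) below it and 14.4% (Foxc1) and 15.2% (Lhx2) above it.

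**Figure D2:**
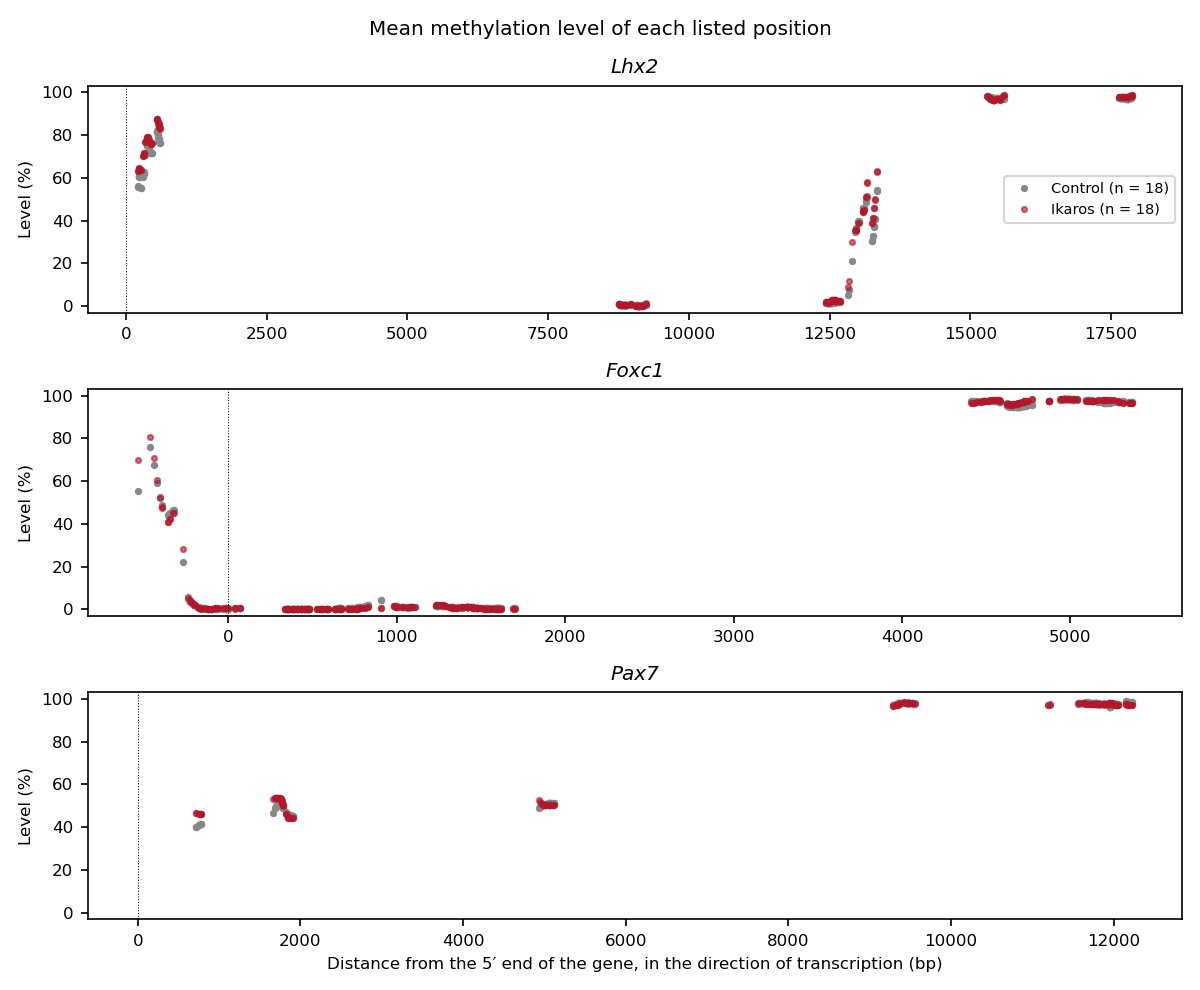
Mean level (vertical axes, %) of each listed position with complete values at Lhx2, Foxc1 and Pax7 against its distance from the 5′ end of the gene in the direction of transcription (horizontal axes, bp), for the Control (grey, n = 18) and Ikaros (red, n = 18) samples. Foxc1 falls from 78.3% to below 1% before its start and is at 97.1% near its 3′ end, Lhx2 is lowest inside the gene, and the first 3 Pax7 clusters lie near 50%.

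A further group of clusters had levels in the middle of the scale. Pax7, which marks muscle stem cells and dorsal neural tube, had 3 such clusters in a row. The promoter cluster (chr4:139832636-139832987) had 43.7%, the next, intronic one (chr4:139831619-139831865) 49.6%, and the third (chr4:139828404-139828655) 50.7%. Deeper in the gene, Pax7 clusters had 97.9% and 97.6%. Within each of the 3 the positions ran from 43.2% to 43.9%, 44.8% to 52.2% and 50.5% to 50.9%. The positions of the first, 712 bp to 780 bp past the 5′ end, lie closer together than the 80 bp of the smoothing, which makes neighbouring levels alike.

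The samples differed widely at these Pax7 clusters. In the intronic cluster the Ikaros samples had 14.8% (lowest), 52.7% (median) and 71.0% (highest), and the Control samples 25.9%, 50.4% and 63.9%. At the promoter cluster, of which 8 positions had complete values, the Ikaros samples had 32.9%, 46.1% and 60.5% and the Control samples 0%, 43.1% and 55.4%. The 0% was in Control 0 h replicate 1, the library with the most missing values. None of the 3 differed between the series (limma, adjusted p = 0.575 to 0.985), and the series overlapped in each.

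The 3′ end of Tbx2, a T-box repressor of heart and limb, had a similar cluster (chr11:85841866-85842176) at 44.2%, which ranged from 23.1% to 68.0% over the samples, while the other 6 Tbx2 clusters had 95.4% to 97.3%. An intronic Lhx1 cluster (chr11:84522857-84523237), within 146 bp of an internal start, had 73.7% (49.2% to 92.8%). It was the lowest of 4 Lhx1 promoter clusters, which had a mean of 89.6% and reached 97.7%. Levels over 36 samples spread by a median of 8.37 points between the lowest and the highest sample, and by over 20 points in 15 of the 146 clusters. A middle level may come from cells, alleles or molecules that differ or from partly methylated molecules, and these cannot be told apart without the reads.

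Gene bodies carried about as much methylation as the promoters. The 50 gene-body clusters had a median of 96.6%, with 42 over 90%, and the 12 clusters in the 2 kb outside the genes had 94.6%. Averaged within a sample, promoter clusters had 90.9% ± 0.517 (SD, n = 36) and gene-body clusters 89.1% ± 0.664. The gene-body mean was lower in all 36 samples, by 1.79 points ± 0.712 (SD). The size of this gap rests on how clusters are assigned and counted. With promoter windows of 500 bp and 2000 bp the gene-body mean was lower by 0.279 and 0.879 points, and with 1 value per gene it was 0.0565 points higher.

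Of the 26 genes with clusters of both kinds, 18 had the higher level in the gene body and 8 at the promoter, and 17 differed by less than 5 points. The largest excess in the gene body was at Foxc1, 41.5 points, where the promoter mean was 7.47% and the gene-body mean 49.0%. Pax7 followed with 30.3 points, Otx1 with 6.95, Tbx15, a gene of skin and skeleton, with 6.65, and Pax2 with 6.17. The opposite order was largest at Tbx2, with 83.0% in the body against 96.8% at the promoter, and at Lhx2, with 49.1% against 62.2%.

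The promoters of other protein-coding genes had a different profile. Between 500 bp upstream and the 5′ end, the median level was 96.2% over 18 of the 50 genes and 0.444% over 6281 other genes. In the 500 bp past the 5′ end it was 96.6% over 28 of the 50 genes and 0.620% over 9181 others. Farther out, at 1500 bp to 2000 bp past the 5′ end, both were high, with 97.3% over 14 genes and 89.3% over 613. The quartiles of the other genes spanned most of the scale in many bins, from 0.319% to 89.1% just past the 5′ end, so a part of these genes was methylated too.

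**Figure D3:**
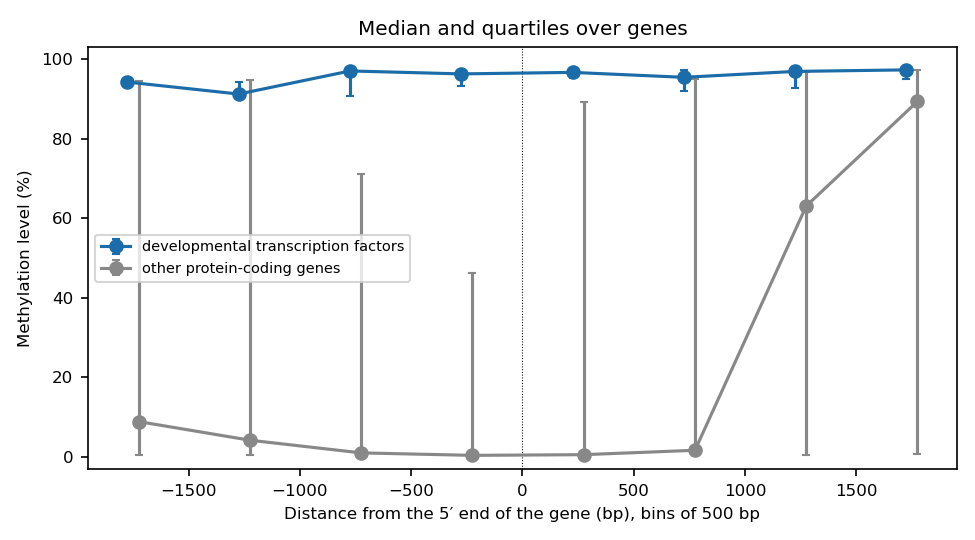
Median methylation level over genes (vertical axis, %) in bins of 500 bp around the 5′ end (horizontal axis, bp), for the developmental transcription factors (blue, 3 to 28 genes a bin) and other protein-coding genes (grey, 211 to 9181 genes a bin), with bars from the lower to the upper quartile. The blue medians stay between 91.2% and 97.3%, and the grey medians are under 2% from 1000 bp upstream to 1000 bp past the 5′ end.

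Other lists of genes, described without a test, place these levels in the series. Of the promoter clusters of all other protein-coding genes, 36.9% (4821 of 13051) had at least 50% methylation, with a median of 1.13%, and among those with island-like sequence the share was 34.2%. The share was 95.2% at the 50 genes. Of 134 other developmental transcription factor genes, 111 had a promoter cluster, and 95.5% of their 198 clusters were at or over 50% (median 96.8%). Of the 198, 5 were under 10%, and Dlx1 had a promoter mean of 0.404%. At the Hox genes 96.3% of 54 clusters, at 35 of 36 genes, were at or over 50% (median 96.7%, Hoxb4 at 1.48%). A list of 40 germline and pluripotency genes had promoter clusters at 20 genes, such as Dazl and Sycp3 but not the pluripotency genes Pou5f1 and Nanog, and all 24 were at or over 50%. B-lineage transcription factors had 18.8% of 48 clusters there, at 25 of 30 genes, and a median of 0.576%. A promoter mean of at least 50% was found at 4 of these 25 genes. They were Ikzf1, which encodes Ikaros (98.0% over 3 clusters), Ikzf2 (98.3%), Erg (82.6%) and Gfi1 (64.9%).

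**Figure D4:**
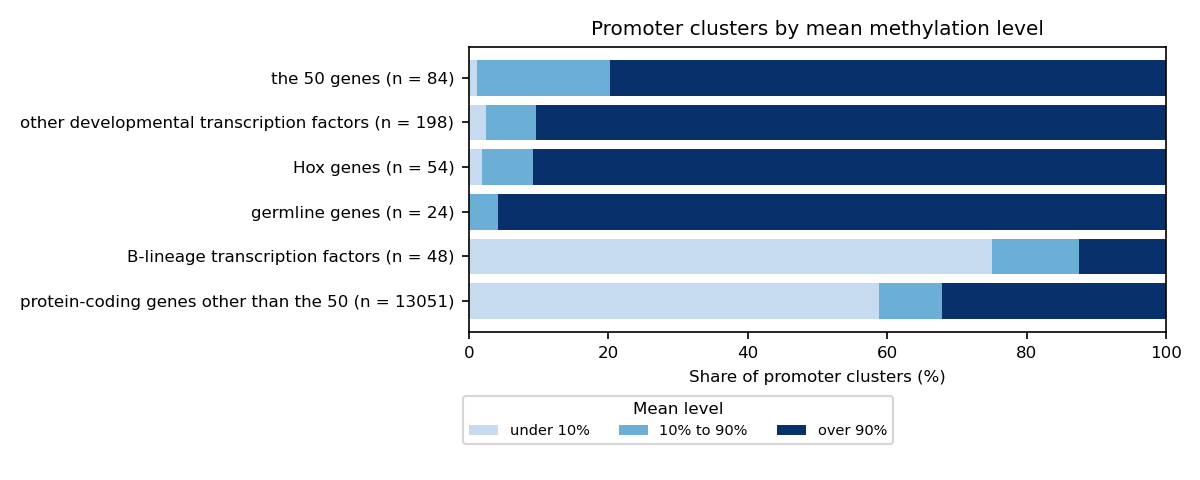
Share (horizontal axis, %) of promoter clusters with a mean level under 10%, from 10% to 90% and over 90%, for the 50 genes and other gene lists, with the number of clusters in each list. Over 90% lie 79.8% of the clusters of the 50 genes and 12.5% of those of B-lineage transcription factors.

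Over the 146 clusters, the level was weakly related to CpG density (Spearman's rho = 0.329 with the observed to expected CpG ratio and 0.316 with the percentage of G or C, as a description over clusters of the same samples). The clusters with low levels were island-like, as were 121 of the 146, so island-like sequence was common to low and high clusters.

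Between the series, differences at these genes were few and small. The cluster means of the M-value, the log2 ratio of methylated to unmethylated level, were compared with limma over all 16734 clusters with the time point in the fit. Of the 146 clusters, 8 (5.48%) passed an adjusted p of 0.05, against 4.84% of all clusters (810 of 16734), so the share was near that of the series as a whole. The median difference of the 146 was 0.164 points higher in Ikaros, against 0.0359 points for all clusters and 0.109 points for the 6728 clusters over 90%. A difference of over 5 points was found at 5 of the 146 and at 483 of all 16734 clusters. The mean promoter level of the Ikaros samples was 91.2% ± 0.245 (SD, n = 18), with a range of 90.7% to 91.6%. The Control samples had 90.5% ± 0.541 (SD, n = 18) and a range of 89.1% to 91.5%, and the 89.1% was in Control 0 h replicate 1, the library with the most missing values. The promoters of all other protein-coding genes moved in the same direction, with 36.6% ± 0.144 (SD, n = 18) in Ikaros and 36.3% ± 0.128 (SD, n = 18) in Control.

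Of the 8 clusters, 7 were higher in Ikaros and 1, at Tbx3, was lower. The directions of the 810 calls over all clusters are not given here, so this count cannot be set against them. Called or not, 56.8% of the 146 clusters and 55.3% of all 16734 clusters were higher in Ikaros. The lowest series mean among them was 69.3%, at Otx1 in Control. The share of levels at exactly 0 or 1, which was also higher in the Ikaros samples, and the share of positions without a value were added to the fit as covariates, and then only the Neurod1 cluster passed among the 146 (adjusted p = 0.00129), while the calls over all clusters went from 810 to 335. The differences in M-value stayed in the same direction. With the covariates they were 0.607 at Gata4, 0.626 at Tbx2, 0.910 at Otx1, 0.489 at Lhx2, 0.395 at Six3, 0.328 at Foxa1 and -0.563 at Tbx3. Without them they were 0.634, 0.695, 0.849, 0.554, 0.569, 0.456 and -0.675 in the same order.

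Neurod1, a bHLH gene of neurons and pancreatic islets, had the lowest p-value. Its coding cluster (chr2:79453957-79454176), which holds the Neurod1 stretch printed above, had 91.8% in the lowest, 94.9% in the median and 96.4% in the highest Ikaros sample, against 89.4%, 92.6% and 93.4% in Control. Thus 16 of the 18 Ikaros samples lay above every Control sample. The difference in M-value was 0.678 ± 0.0898 (SE) with an adjusted p of 4.21e-06, and Ikaros had the higher mean at 6 of 6 time points. Within batches 1, 3 and 4 the difference was 1.55, 3.55 and 3.23 points. Batch 2 held 1 sample of each series, with a difference of -1.52 points.

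The Otx1 cluster (chr11:22001997-22002213) had the largest difference in level. Otx1 is a homeobox gene of forebrain and inner ear, and the cluster is intronic, 287 bp from the nearest start. The Ikaros samples had 63.3%, 80.8% and 89.1% (lowest, median, highest) and the Control samples 58.1%, 69.6% and 84.1%, with overlap of the series and 17 of 18 Ikaros samples above the Control median. The means were 79.6% and 69.3%, and the difference in M-value 0.849 ± 0.187 (SE, adjusted p = 0.00382). At 0 h the means were 77.9% ± 6.21 and 77.2% ± 10.4 (SD, n = 3), and the largest gap was 16.0 points. The call was lost when replicate 2 of every condition was left out (adjusted p = 0.0809) and without replicate 3 (0.335). Within batches 1, 3 and 4 Ikaros was higher by 3.28, 14.8 and 16.4 points, and in the pair of batch 2 the difference was -6.14 points.

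The 5′ cluster of Lhx2 was also higher in Ikaros. It had 67.7%, 77.9% and 84.0% in the Ikaros samples and 64.8%, 72.2% and 76.9% in the Control samples, and 12 of 18 Ikaros samples lay above every Control sample. The difference in M-value was 0.554 ± 0.118 (SE, adjusted p = 0.00286), and it was 0.879 (adjusted p = 0.000501) with all available positions in place of the complete ones. The call was lost without replicate 2 (adjusted p = 0.0721) and without replicate 3 (0.0522). Within batches 1, 3 and 4 Ikaros was higher by 4.59, 4.01 and 7.73 points, and in the pair of batch 2 by 12.6 points. At 24 h the order was turned, with 71.6% ± 3.56 in Ikaros and 72.9% ± 0.407 in Control (SD, n = 3). The low clusters inside Lhx2 did not pass (adjusted p = 0.897 and 0.198).

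An intronic cluster of Six3 (chr17:85614990-85615548), an eye and forebrain gene, had 89.9%, 92.4% and 93.7% in Ikaros and 76.2%, 89.3% and 92.1% in Control. The 76.2% came from Control 0 h replicate 1, and without that library the adjusted p was 0.00197, against 0.00309 with it. Without replicate 2 the cluster did not pass (adjusted p = 0.121). The cluster also lies within 1 kb of starts of Six3os1, a non-coding gene on the other strand, and RRBS levels do not separate the genes there. Ikaros was higher at 6 of 6 time points and in each batch, by 2.07 to 4.40 points.

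The other 3 clusters that were higher in Ikaros differed by 1.22 to 3.28 points. At Gata4 (chr14:63245047-63245797) the Ikaros samples had 92.6%, 97.1% and 98.5% and the Control samples 90.6%, 92.1% and 96.9% (adjusted p = 0.0163). At Tbx2 (chr11:85832736-85832968), in UTR sequence near a start, Ikaros had 95.0%, 97.7% and 99.4% and Control 93.0%, 96.9% and 98.0% (adjusted p = 0.0112). On the 3′ side of Foxa1 (chr12:57538599-57539158) Ikaros had 93.7%, 96.8% and 98.3% and Control 93.0%, 95.1% and 96.5% (adjusted p = 0.0427). All 3 pairs of ranges overlapped. Ikaros had the higher mean at 6 time points at Gata4 and at Tbx2. At Foxa1 it was higher at 5 and lower at 1, by 0.150 points at 0 h. Within batches 1, 3 and 4 the Foxa1 difference was 1.42, 0.986 and 1.80 points, and in the pair of batch 2 it was -2.35 points. The Gata4 cluster did not pass when any replicate number was left out (adjusted p = 0.0909 to 0.126), Tbx2 not without replicate 1 (0.124) or 3 (0.163), and Foxa1 not without replicate 1 (0.266) or 3 (0.519). The Foxa1 cluster no longer passed once the fit had a replicate block (adjusted p = 0.0545).

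Upstream of Tbx3, a limb and mammary gene, the direction was opposite. The cluster (chr5:119670317-119670595), which is also near a start of the non-coding Tbx3os1, had 91.1%, 96.0% and 98.0% in Ikaros and 95.5%, 97.7% and 98.7% in Control. Ikaros was lower at 6 of 6 time points and in each batch, by 0.690 to 3.16 points. The difference in M-value was -0.675 ± 0.149 (SE, adjusted p = 0.00401), and it did not pass without replicate 3 (adjusted p = 0.222). The other Tbx3 promoter clusters did not pass (adjusted p = 0.257 and 0.584).

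**Figure D5:**
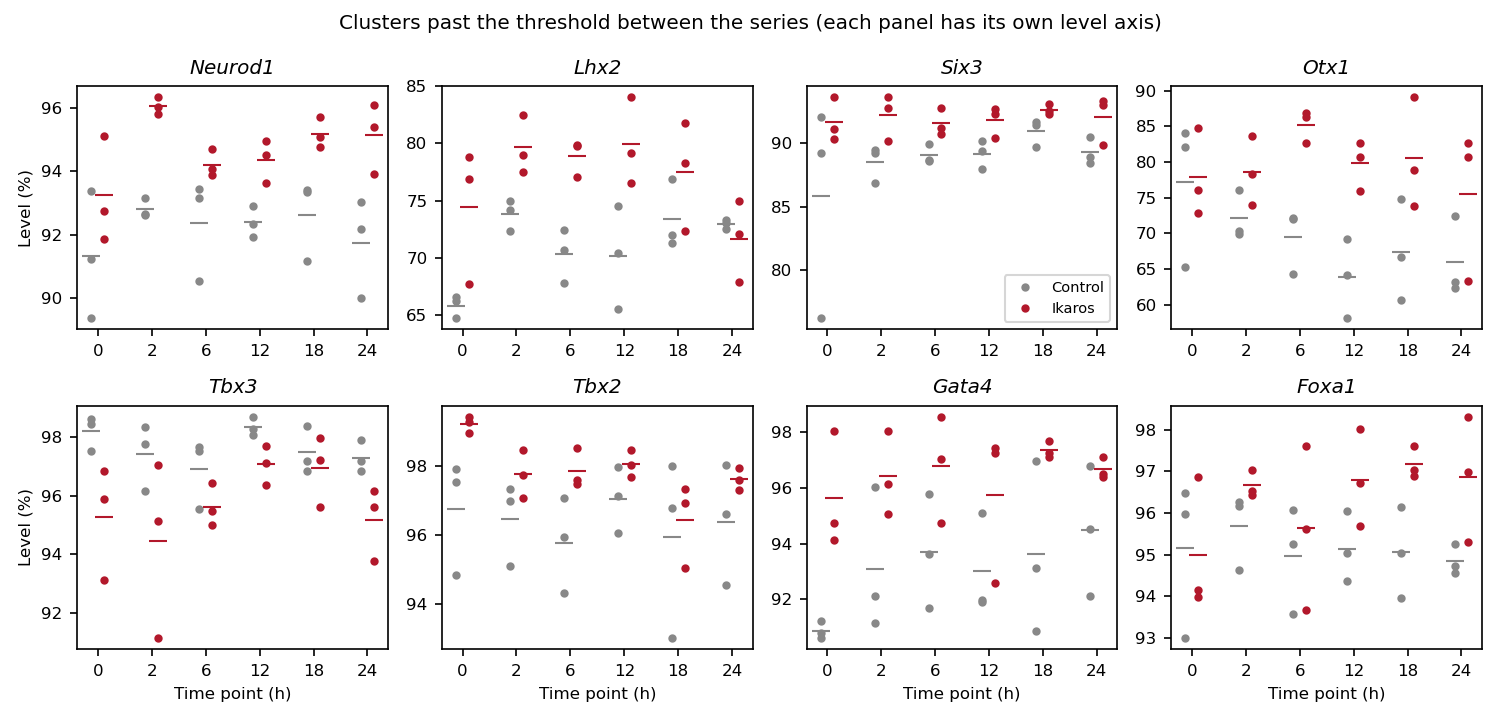
Methylation level (vertical axes, %, a separate scale in each panel) of the 8 clusters past the threshold between the series, by time point (horizontal axes, h), in Control (grey) and Ikaros (red) samples. Points are samples (3 per series and time point) and dashes are their means. The ranges overlap in each panel, and the largest gap between means is 16.0 points, at Otx1 and 12 h.

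No change over time was detected at these genes. No cluster of the 146 passed the F test of change over time in the Ikaros series (lowest adjusted p = 0.516), against 0% of all 16734 clusters, though 11 (7.53%) fell under 0.05 before adjustment, against 5.22% of all clusters. None passed in the Control series either (lowest adjusted p = 0.919), against 0.012% of all clusters, though 4 (2.74%) fell under 0.05 before adjustment, against 4.83% of all clusters. The test of a different course in the series also passed none (lowest adjusted p = 0.729), against 0% of all clusters, with 6 (4.11%) under 0.05 before adjustment, against 5.12% of all clusters. The 4 low clusters stayed under 10% in the mean of each series at each time point. In the Ikaros series the time point means of the Foxc1 cluster that is 69.0% coding ran from 0.314% to 0.681%, and those of its wholly coding cluster from 0.544% to 1.26%. The low Lhx2 intron had means of 0.212% (6 h) to 1.02% (2 h), and the Hand1 cluster had 2.80% (18 h) to 6.63% (2 h). The Hand1 samples at 24 h spread most, with 4.08% ± 4.65 (SD, n = 3).

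The 6 clusters without a position that had a value in all samples were not in these tests. With all available positions, the Tbx4 intron was the 1 of them that had a value in all 36 samples and was tested, and it did not pass between the series. Over the samples with a value, this Tbx4 cluster (chr11:85895066-85895349) had a mean of 51.6%, and a Neurog2 coding cluster (chr3:127633808-127633905) had 87.6%. The others lie at Tbx1, Nkx6-1, Lhx5 and Twist1.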

How the data were processed

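Methylation was measured by RRBS in 36 samples of the B3 line. Per the paper's methods, reads were trimmed and mapped to GRCm38 with Bismark (version 0.10.1, also in the submitters' processing notes). The authors skipped the first 4 bases of each read, capped unusually high coverage and smoothed levels within CpG clusters over 80 bp. The authors deposited smoothed levels as a fraction from 0 to 1 and M-values on a log2 scale, from levels limited to 0.01 to 0.99. No coverage minimum could be applied, so the depth is unknown and replicate spread is the only measure of precision.

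Clusters were rebuilt from the 1116417 listed positions (gaps of at most 100 bp, at least 20 positions), and a cluster's value was the mean over its positions with a value in all 36 samples. Positions were checked against GRCm38, and 1116322 fell on a CG. Genes, transcription starts and features came from GENCODE M21. Overlapping genes share reads, and levels do not separate them.

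The cluster means of the M-values were tested with limma 3.58.1 (lmFit, eBayes, R 4.3.3) over all 16734 clusters, with Benjamini-Hochberg adjustment and a threshold of 0.05. The series test had the time point as a factor, and time and the series-by-time terms were tested by moderated F tests. The fits were tested on simulated data. Tables were handled in pandas 2.3.3 and numpy 2.4.6 under Python 3.11.15.

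The 50 genes and the gene lists were chosen with earlier results of these data known. Named were promoter clusters at 10% or more, clusters past a test, the 5 genes with the largest gene-body excess, genes with unmethylated promoter clusters, members without a cluster, and clusters on either side of 10%. Other low or middle clusters, those without complete values and the gene examples of other lists were chosen after their values were seen. Replicate numbers mark batches shared between conditions in the labels (1 is batch 1, 3 is batch 4, 2 is batch 2 at 0 h and batch 3 later), so they pair samples. For 0 h this pairing rests on the labels, since the methods describe those cells as collected separately. The mean correlation of deviations from the condition means was -0.000326 over 198 same-number pairs.

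Alternatives were the levels in place of M-values, the replicate block, all available positions, left-out replicates and libraries, coverage covariates, time subsets, other promoter windows, each series alone and 1 value per gene. No sample had values identical to another's. The other data types of the study were not analysed here.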

Additional observations from a re-analysis of the deposited data

How the results depend on the processing

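The count of 8 clusters between the series was 7 on the scale of levels, 7 with the replicate block, 8 (of 147 tested) with all available positions, 7 without Control 24 h replicate 2, and 8 without Control 0 h replicate 1 (chosen after seeing the data) or with the 2 h to 24 h samples. It was 2 to 5 when a replicate number was left out and 1 with the 0 h samples only. With the shares of missing levels and of levels at exactly 0 or 1 as covariates, it was also 1. In the same order, the calls over all 16734 clusters were 368 to 543, 1 and 335, against 810. The replicate block changed the call of Foxa1 and no other. Without Control 24 h replicate 2 Foxa1 had an adjusted p of 0.0611, and without Control 0 h replicate 1 it had 0.0660. Without the latter library, and with the 2 h to 24 h samples, the Sox9 promoter cluster passed (adjusted p = 0.0234 and 0.0117). With the 2 h to 24 h samples Tbx2 did not pass (0.0930). With all available positions the Lhx2 difference in M-value moved from 0.554 to 0.879 and kept its call. Without replicate 1 Lhx2, Neurod1, Otx1, Six3 and Tbx3 passed, without replicate 2 Foxa1, Neurod1, Tbx2 and Tbx3, and without replicate 3 Neurod1 and Six3. Of 11 alternatives Neurod1 passed in 10, Six3 and Tbx3 in 8, Lhx2 and Otx1 in 7, Gata4 and Tbx2 in 6 and Foxa1 in 3. At 0 h alone the difference in M-value was -0.0361 at Otx1, 0.0460 at Foxa1, 1.35 at Tbx2 and -1.02 at Tbx3. At Gata4, Lhx2, Neurod1 and Six3 it was 0.738, 0.636, 0.539 and 0.762. The only call there was Tbx4 (adjusted p = 0.00575). Its 3 Ikaros samples were all at 100% and its Control samples at 90.6% to 92.5%, over 6 positions. Levels at or over 99% share 1 M-value, so spread is lost at this end of the scale. The tests of time and of the course over time called no cluster of these genes on the scale of levels, with the replicate block, with all available positions or without a replicate number, and the other alternatives were not run for them.

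The gene-body minus promoter mean of -1.79 points was -0.279 with a promoter window of 500 bp, -0.879 with 2000 bp and 0.0565 with 1 value per gene, and -1.86 to -1.74 when a replicate number was left out. The promoter counts stayed within 1.5 times under every alternative run (at least 50%: 61 of 65 with 500 bp and 102 of 108 with 2000 bp). The causes were not tested. Depth is unknown, so what it limits at a single cluster cannot be stated.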
